A study of Mus musculus with 32 samples.

Results

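The Reg genes described are Reg1, Reg3a, Reg3b and Reg3g, 4 of the 27827 gene names on the array, taken by name from the scanner files' gene annotation. They were chosen by their measured levels in these same arrays, near background on saline and far above it 20 h after LPS for Reg3b and Reg3g, so every value of these 4 genes set between the saline and 20 h groups below is a description and carries no test. Liver RNA of 32 mice was measured, 1 array per mouse. The groups were E2f1 knockout on saline (6 mice, genotype E2F1-/-, with a strain label that names B6 and 129 beside the deleted gene), wild type on saline (6 mice, genotype E2F1+/+, strain label B6x126 F2), knockout and wild type at 6 h after systemic LPS (4 and 4 mice), and knockout and wild type at 20 h after it (6 and 6 mice). All saline mice carry a 20 h label, so there is no saline group at 6 h. LPS, or lipopolysaccharide, is the outer-membrane glycolipid of Gram-negative bacteria, and E2F1 is a transcription factor known for its part in cell-cycle entry. The dose, sex, age and the deleted part of E2f1 are not given in the sources used here, and the 2 genotypes carry different strain labels, so strain and genotype cannot be told apart.

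Reg genes encode small secreted proteins with a C-type lectin fold. Reg3b and Reg3g proteins bind bacterial surfaces and are best known from the intestinal epithelium, where they act against bacteria. Cytokines that signal through STAT3, among them interleukin-6 and interleukin-22, are known inducers of these genes. Reg3b is also known as pancreatitis-associated protein, and Reg1 was named from regenerating pancreatic islets and is abundant in the exocrine pancreas. Reg3a belongs to the same family, and its protein is less studied in the mouse.

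The 4 genes sit in 1 cluster: the 6 Reg probes of chromosome 6 span 93.2 kb (mm9, 78323323 to 78416479, per the file annotation), while the probe of Reg4 lies on chromosome 3. Each of the 4 genes has 1 probe of 60 bases. The Reg3b probe lies at chr6:78323323-78323382 on the plus strand, the Reg3a probe at chr6:78333635-78333694 on the plus strand, the Reg1 probe at chr6:78378527-78378586 on the plus strand and the Reg3g probe at chr6:78416420-78416479 on the minus strand. No 2 of the 4 probes share a run of more than 7 bases. Whether a probe lies in a coding exon or a UTR was not analysed here. The brightest raw spot of any member, that of Reg3b, reached 24% of the brightest spot on any array.

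The promoters are shown because 3 of the 4 genes move together below, and because STAT3 is their known route of induction. All 4 genes matched RefSeq's promoter table (GRCm38.p6), which gives 250 bases before and 50 after each start site. Capitals mark the STAT motif TTCNNNGAA and the TATA motif TATAAA where they read along the gene.
Reg3b promoter, chr6:78370635-78370934, plus strand: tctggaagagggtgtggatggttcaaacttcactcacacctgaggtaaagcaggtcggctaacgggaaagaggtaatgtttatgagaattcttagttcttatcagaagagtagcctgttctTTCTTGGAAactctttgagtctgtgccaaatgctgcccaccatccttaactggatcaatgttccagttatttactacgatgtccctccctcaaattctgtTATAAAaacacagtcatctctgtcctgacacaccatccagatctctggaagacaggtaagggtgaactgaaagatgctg
Reg3g promoter, chr6:78468825-78469124, minus strand: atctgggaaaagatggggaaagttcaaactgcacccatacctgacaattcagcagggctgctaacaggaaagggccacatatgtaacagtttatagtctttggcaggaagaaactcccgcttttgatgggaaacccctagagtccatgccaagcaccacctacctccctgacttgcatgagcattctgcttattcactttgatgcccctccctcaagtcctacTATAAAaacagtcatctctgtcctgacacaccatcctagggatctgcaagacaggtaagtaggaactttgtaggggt
Reg3a promoter, chr6:78380459-78380758, plus strand: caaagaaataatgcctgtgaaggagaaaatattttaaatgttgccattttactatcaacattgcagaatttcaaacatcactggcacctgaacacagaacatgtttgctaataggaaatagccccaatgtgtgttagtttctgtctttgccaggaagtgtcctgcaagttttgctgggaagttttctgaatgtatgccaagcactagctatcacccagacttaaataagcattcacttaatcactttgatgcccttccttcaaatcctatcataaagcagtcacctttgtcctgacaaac
Reg1 promoter, chr6:78425733-78426032, plus strand: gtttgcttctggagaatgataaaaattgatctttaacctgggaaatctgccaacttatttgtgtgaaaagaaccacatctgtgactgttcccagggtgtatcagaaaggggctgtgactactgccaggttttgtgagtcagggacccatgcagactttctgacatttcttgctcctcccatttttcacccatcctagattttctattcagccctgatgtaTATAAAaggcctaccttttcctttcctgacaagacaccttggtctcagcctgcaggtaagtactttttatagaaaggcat

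Searched on both strands, TTCNNNGAA occurred in the Reg3b window, as TTCTTGGAA starting 129 bases before the start site, and in none of the other 3. Of all 32851 promoter windows of that length, 8.3% hold it. TATAAA read along the gene in Reg3b, Reg3g and Reg1, starting 29, 27 and 30 bases before the start site, and not in Reg3a, and 13.6% of all windows hold it on either strand. The 2 reverse-strand matches of TATAAA, 1 in Reg3g and 1 in Reg1, are not in capitals. A further motif, TTGCNNAA (part of the C/EBP consensus, in 10.8% of windows), occurred only in Reg3a among the 4 windows. The E2F motif TTTNNCGC, in 5.17% of windows, was in none of the 4. The Reg3b and Reg3g windows were the most alike, with 69% identity over their alignment, against 49.9% to 55.2% for the other 5 pairs. They share an unbroken run of 29 bases that starts 20 bases before each start site, acagtcatctctgtcctgacacaccatcc.

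Values below are log2 of the processed spot signal minus the array's 75th percentile, so 0 is the level of that percentile, and a spot is called measured where Agilent's software marked it well above background. On each array 20203 to 28891 spots were well above background, and 19204 genes were tested. Hepatocyte markers were above background on every array (10 of 10 genes). The labels' extraction text names lung. Of the 5 lung epithelium markers, the surfactant genes Sftpb and Sftpc were never measured, and the others were on some arrays, at most 3 of the 5 on any. The median summed level of the 5 was 0.88 at 20 h and 0.12 on saline in wild-type livers (linear, array's 75th percentile = 1). In knockout livers it was 0.35 at 20 h and 0.12 on saline. E2f1 itself checked nothing about the deletion, since where its probe lies relative to the deleted part is not known. It was measured on all 16 knockout arrays. At 6 h E2f1 lay at -3.01 to -1.65 in knockout livers, all above the -4.28 to -3.27 of wild-type livers. At 20 h its median was -2.09 in knockout livers and -5.81 in wild-type livers, where 2 of the 5 arrays that gave a value were measured. On saline the genotypes overlapped, with medians of -3.10 in knockout and -3.37 in wild-type livers. The E2f1 levels thus can neither bear out nor question the genotype labels, and every knockout and wild-type group below is as labelled. A pair of libraries stood apart, both from slide 8 of scan date 3. On a scale where wild-type saline averages 0 and wild-type LPS 6 h averages 1 over 5396 genes, the library labelled knockout saline replicate 1 scored 0.88, against -0.01 to 0.06 for the other 5 knockout saline libraries. The library labelled knockout LPS 6 h replicate 1 scored 0.13, against 0.90 to 0.98 for the other 3 of its group. Both scores go against the labels, and whether these 2 samples were exchanged was not tested. Results that rest on them are given with and without both. A further library, labelled knockout LPS 20 h replicate 4, lay below its group. On the like scale from wild-type saline to wild-type LPS 20 h, over 6921 genes, it scored 0.36. The others of its group scored 0.96 to 1.06. It was kept in the fits except where single arrays were left out in turn. Nothing in the labels says whether mice shared a litter or cage, and the p-values measure the spread between mice as labelled.

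Reg3b was near or below background in saline livers, present in every liver at 6 h and highest at 20 h. On saline, 5 of the 6 knockout livers lay between -7.80 and -5.69 without being measured, and the library labelled knockout replicate 1 lay at 5.47. In wild-type saline livers, 5 of 6 lay between -7.95 and -4.94 without being measured, and replicate 5 was measured at -0.43. At 6 h, the knockout livers had 3.68, 2.78, 2.21 and 2.12, against -0.27, 0.48, -0.16 and -0.07 in wild-type livers. All 8 were measured, and every knockout liver lay above every wild-type liver. At 20 h, the knockout livers had 4.98, 7.71, 6.43, 5.61, 6.09 and 3.82, against 6.11, 6.74, 5.17, 4.46, 4.51 and 3.80 in wild-type livers. The 20 h genotypes overlapped through most of their range, and the lowest 20 h liver of either genotype lay above the highest 6 h liver. Group means were 5.77 ± 1.32 in knockout and 5.13 ± 1.11 in wild-type livers at 20 h (SD, n = 6 each). At 6 h they were 2.70 ± 0.71 in knockout and -0.0021 ± 0.33 in wild-type livers (SD, n = 4 each).

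The 20 h minus saline difference of Reg3b was 10.46 in knockout and 10.99 in wild-type livers on the log2 scale, as a description. With the unmeasured saline spots raised to the lowest measured signal of their array, it was 8.73 in knockout and 9.35 in wild-type livers. Without knockout saline replicate 1 no knockout saline spot was measured, and the 20 h mean was then at least 1366-fold higher. That is a bound, from the 20 h mean against the mean, over the saline arrays, of the lowest signal that was well above background. An unmeasured spot can lie above that lowest signal, and its own value was then used, so such bounds are approximate.

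Reg3g had the same order of groups. On saline, 5 of 6 knockout livers lay between -7.93 and -4.40 without being measured, and the library labelled replicate 1 lay at 3.14. In wild-type saline livers, replicate 5 was measured at -1.26 and the other 5 lay between -8.19 and -5.76. At 6 h, the knockout livers had 2.10, 2.29, 1.64 and 2.44, against -0.62, 1.05, 0.53 and 0.44 in wild-type livers. Again no wild-type liver reached the lowest knockout liver. At 20 h, the knockout livers had 4.87, 6.48, 5.84, 3.30, 4.95 and 5.37, against 5.21, 4.28, 5.74, 3.61, 3.93 and 3.38 in wild-type livers. Here the genotypes overlapped, and both lay wholly above the 6 h livers. The 20 h minus saline difference was 9.69 in knockout and 10.50 in wild-type livers. Without knockout saline replicate 1, the 20 h knockout mean was at least 873-fold above saline, by the same bound. In knockout saline replicate 4 the unmeasured Reg3g spot, at -4.69, lay above the lowest measured signal of its array, -4.74.

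Reg3a was measured at 6 h in knockout livers and only at 20 h in wild-type livers. On saline it was measured in 1 of 6 knockout livers, the library labelled replicate 1, at -1.44, and in 0 of 6 wild-type livers. At 6 h, the knockout livers had -3.87, -2.51, -3.27 and -2.34, all measured, against -5.93, -4.50, -6.26 and -6.31 in wild-type livers, of which 0 of 4 were measured. The 6 h knockout mean was therefore at least 2.83-fold above wild type, and at least 3.47-fold without knockout replicate 1, with measured means of -3.00 in knockout and -5.75 in wild-type livers. At 20 h, all 12 livers were measured, with -1.57, 1.23, 0.25, -1.86, 0.03 and -2.33 in knockout and -1.88, -1.10, -2.14, -2.68, -3.70 and -3.14 in wild-type livers. The 2 highest groups of values overlapped, with 3 knockout livers above the highest wild-type liver. The 20 h wild-type mean was at least 5.41-fold above wild-type saline, and the 20 h knockout mean at least 15.3-fold above knockout saline without replicate 1.

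Reg1 had another order of groups. It was measured on 12 of the 32 arrays, and 3 of its 4 highest values were in libraries labelled saline. On saline, the library labelled knockout replicate 1 had 5.01 and knockout replicate 6 had -1.99, while the other 4 knockout livers were not measured, at -6.22 to -5.89. In wild-type saline livers, replicates 5, 3 and 6 were measured at -3.01, -5.07 and -5.58. At 6 h, knockout replicate 1 had -1.92, and the other 3 knockout livers lay between -6.42 and -5.10, against -6.60 to -3.53 in wild-type livers. At 20 h, 3 of 6 knockout livers and 1 of 6 wild-type livers were measured, with medians of -5.63 in knockout and -6.53 in wild-type livers. The 20 h minus saline difference of Reg1 was -1.80 in knockout and -0.89 in wild-type livers, and -0.09 in knockout livers without the 2 libraries.

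**Figure D1:**
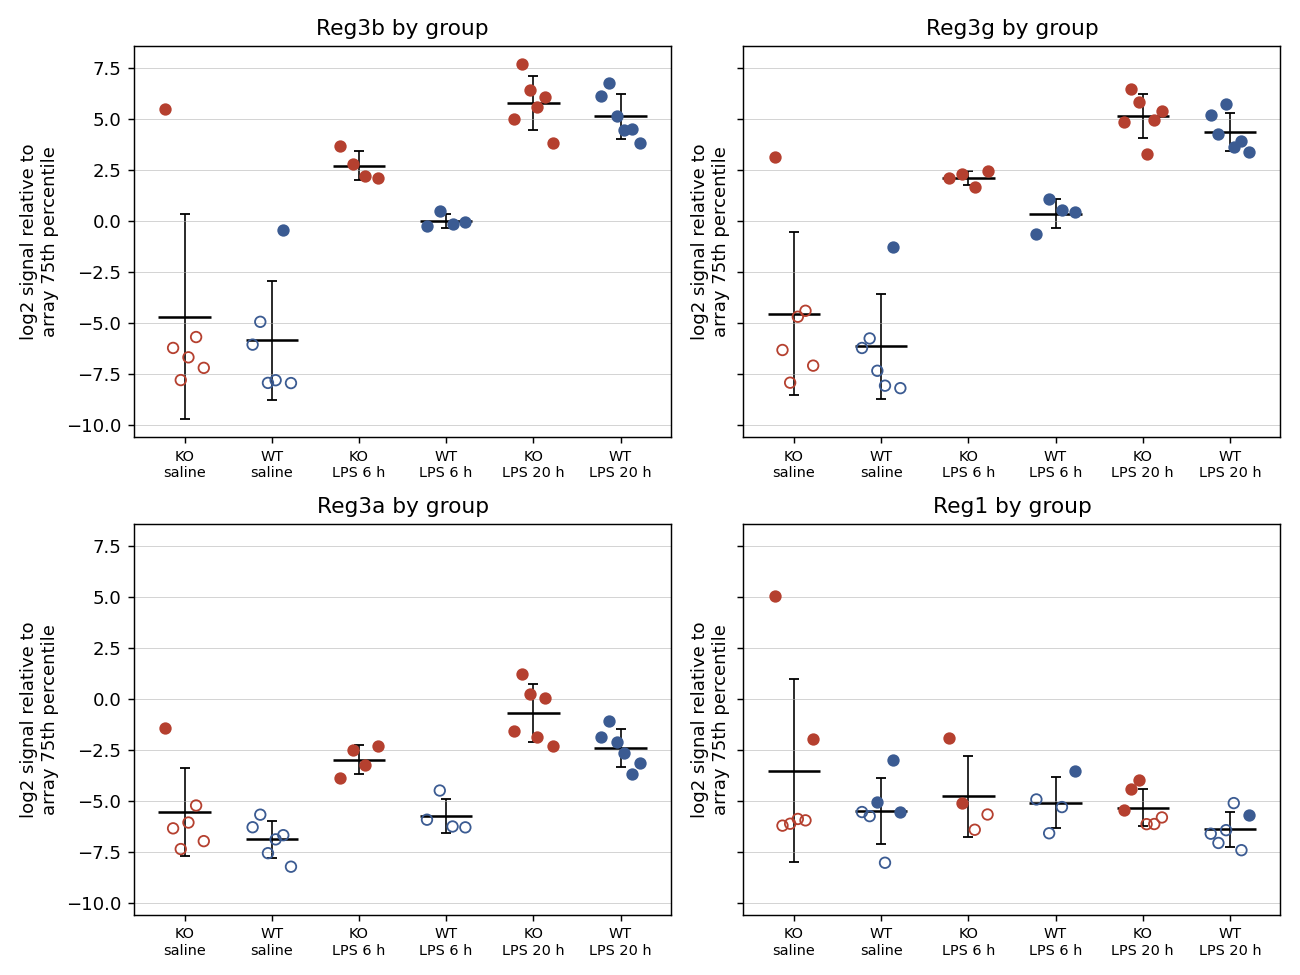
Level of Reg3b, Reg3g, Reg3a and Reg1 (y axis, log2 signal relative to the array's 75th percentile) in each liver by group (x axis, knockout in red, wild type in blue). Filled points are well above background and open points are not, lines and bars are mean and SD. Reg3b and Reg3g are filled in every liver at 6 h and 20 h, and Reg3a in the knockout livers at 6 h and in both genotypes at 20 h. At 6 h the 4 knockout livers lie above the 4 wild-type livers for these 3 genes, while Reg1 has its highest point, 5.01, in a saline library.

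The 6 h livers were not used in choosing the genes, but the saline arrays were, where Reg3b and Reg3g lay near background. The p-values of 6 h against saline are therefore not independent of that choice, and low saline values favour them. In wild-type livers Reg3b was higher at 6 h by 5.85 ± 1.63 (log2 difference ± SE, limma, adjusted p = 0.00731) and Reg3g by 6.49 ± 1.34 (limma, adjusted p = 0.000536). Reg3a, not well above background in any wild-type liver of either group (limma, adjusted p = 0.311), and Reg1 (0.41, limma adjusted p = 0.864) did not pass, so 2 of 4 members were called, where 28.5% of all genes tested were called in either direction. In knockout livers, Reg3b was higher by 7.38 ± 1.63 (limma, adjusted p = 0.0404) and Reg3g by 6.67 ± 1.34 (limma, adjusted p = 0.0401), against 2.61% of all genes called. Of the 6 knockout saline spots, 1 was measured for each gene. With slide as a block neither call held, at 6.70 for Reg3b (limma, adjusted p = 0.143) and 6.30 for Reg3g (limma, adjusted p = 0.133). Reg3a differed by 2.58 in knockout livers (limma, adjusted p = 0.0686). Leaving out any 1 of knockout saline replicates 2 to 6 or of knockout 6 h replicates 2 to 4 ended both knockout calls (limma, adjusted p = 0.0873 to 0.244). So did leaving out wild-type saline replicate 2 or wild-type 20 h replicate 5, at 0.0504 and 0.0518, and the Reg3b call also ended without wild-type 6 h replicate 4 or knockout 20 h replicate 3, at 0.0505 each. Without knockout saline replicate 1 alone, Reg3b passed (limma, adjusted p = 3.16e-06). Without the 2 libraries, 29.2% of genes were called in knockout livers, and no knockout saline spot of these 3 genes was well above background, so only lower bounds can be given. By these bounds, which were not tested, Reg3b was at least 129-fold higher at 6 h, Reg3g at least 108-fold and Reg3a at least 3.84-fold. The fit tested the log2 differences from the unmeasured saline values themselves. They were 9.09 for Reg3b (limma, adjusted p = 3.59e-07), 8.21 for Reg3g (limma, adjusted p = 7.54e-07) and 3.70 for Reg3a (limma, adjusted p = 0.000149). Reg1 differed by -1.25 over all libraries and -0.49 without the 2, and passed in neither fit. Within scan date 2, where wild-type saline replicate 5 lies, the wild-type differences were 3.74 for Reg3b and 4.85 for Reg3g, and neither passed (limma, adjusted p = 0.251 and 0.135).

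Whether E2f1 genotype altered these levels was asked at each time. At 6 h, no member passed the fit over all genes. The differences, knockout minus wild type, were 2.75 ± 0.89 for Reg3a (limma, adjusted p = 0.136) and 2.70 ± 1.79 for Reg3b (limma, adjusted p = 0.658), and 1.77 ± 1.47 for Reg3g (limma, adjusted p = 0.769). That fit called 1.26% of genes at 6 h. Without knockout saline replicate 1 alone Reg3a passed (limma, adjusted p = 0.0304). Without both libraries it passed too, at 3.05 ± 0.72 (limma, adjusted p = 0.0269), where 1.34% of genes were called, and Reg3b (2.37, adjusted p = 0.372) and Reg3g (1.77, adjusted p = 0.528) did not. Taken alone, the 8 arrays did not overlap for 3 of 4 members, all with the knockout higher, where 4.22% of genes were likewise higher without overlap. The exact permutation test over those 8 arrays gave two-sided p = 0.0286 for each of the 3, unadjusted, the smallest that 4 against 4 allows, and 0.8 for Reg1. These 6 h permutation tests were added after the values had been seen. Over 4 genes and 2 times 8 such tests were computed, and 4 more at 6 h without knockout replicate 1. Without knockout replicate 1 the 3 genes still did not overlap, as for 7.91% of genes, and 0.0571 is then the smallest p the exact permutation test allows. Within scan dates 1, 2 and 3, each with at most 2 arrays a group, the 6 h difference was 2.93, 2.24 and 3.57 for Reg3b. It was 1.76, 1.60 and 1.88 for Reg3g, and 3.76, 3.50 and 1.34 for Reg3a. The only 6 h knockout array of scan date 3 is replicate 1, which stood apart, so the third value of each gene rests on it. Scan date 1 holds 1 array of each genotype at 6 h. With slide as a block, it was 0.84 for Reg3b, 0.93 for Reg3g and 1.88 for Reg3a.

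At 20 h no member passed between genotypes. The difference was 1.73 ± 0.72 for Reg3a (limma, adjusted p = 0.521), with an exact permutation p of 0.0368, unadjusted. It was 0.64 ± 1.46 for Reg3b (95% interval -2.35 to 3.62, exact permutation p = 0.377) and 0.78 ± 1.20 for Reg3g (95% interval -1.68 to 3.23, exact permutation p = 0.208). Reg1 differed by 1.06 ± 1.26 (exact permutation p = 0.0671), against 0.31 ± 1.54 at 6 h. Whether the genotype difference changed between 6 h and 20 h was not tested. The intervals leave room for differences of several-fold either way. The 20 h fit called 0.323% of all genes. On saline no member passed either, in a fit that called 0.333% of genes. The saline levels were used in choosing the genes, and most saline spots of the 4 genes were not well above background. The saline test therefore cannot decide whether genotype altered these levels. The saline difference of Reg3b was 1.17 over all libraries and -0.87 without the 2, so its sign rested on them. The test of whether the LPS response itself differed between genotypes passed for no member at 6 h (log2 1.53 for Reg3b, 0.17 for Reg3g, 1.43 for Reg3a, -1.66 for Reg1). That fit called 0.125% of genes, and its 6 h term also uses the saline arrays by which the genes were chosen. At 20 h, where the saline and 20 h levels chose the genes, the same term was -0.53, -0.82, 0.41 and -0.91 in that order, as a description, beside 0.0417% of genes called.

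**Figure D2:**
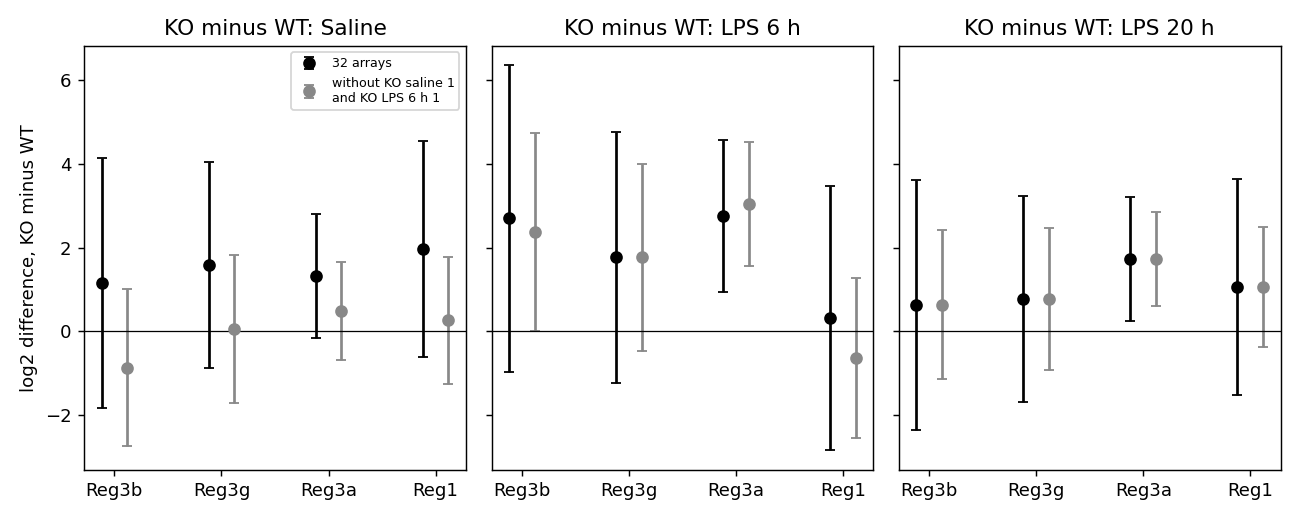
Knockout minus wild-type log2 difference (y axis) of each gene (x axis) with its 95% interval from limma, on saline and at 6 h and 20 h after LPS. Black is all 32 arrays and grey leaves out 2 libraries that stood apart. At 6 h the points of Reg3b, Reg3g and Reg3a are above 0 in both fits, and on saline Reg3b changes sign between them.

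Cell-type markers were set beside the 6 h difference. Of 14 neutrophil and 6 cholangiocyte markers tested, 0 passed between genotypes at 6 h, where 1.26% of all genes were called. Their median differences, knockout minus wild type, were 0.53 for neutrophil and 0.07 for cholangiocyte markers. Without the 2 libraries that stood apart 1 neutrophil marker passed, where 1.34% of genes were called. The median differences were then 1.70 for neutrophil and 0.19 for cholangiocyte markers. The summed level of 14 neutrophil markers was 9.59, 278, 225 and 154 in the knockout 6 h livers, against 67.9, 56.4, 98.0 and 58.3 in the wild-type 6 h livers (linear, array's 75th percentile = 1). The knockout liver with the lowest neutrophil sum, replicate 1, had the highest Reg3b of the 8, 3.68, and is 1 of the 2 libraries that stood apart. In the other knockout livers the neutrophil sums, 154 to 278, lay above those of every wild-type liver. Their Reg3b, 2.12 to 2.78, did too. The summed level of 8 cholangiocyte markers was 16.3 to 47.2 in knockout and 12.7 to 26.9 in wild-type livers. On saline, neutrophil sums were 327 in knockout replicate 1, 1.63 to 4.36 in the other 5 knockout livers and 2.50 to 9.64 in wild-type livers, where replicate 5 was the highest. The part of these cells in the Reg values was not tested, and in whole liver more cells of a type and more RNA per cell cannot be told apart.

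Among themselves, Reg3b and Reg3g tracked each other array by array. Over the 32 arrays their Pearson correlation was 0.98, and that of their deviations from group means was 0.93. Reg3a correlated with Reg3b at 0.91 over arrays and 0.79 over deviations. Reg1 correlated with Reg3b at 0.13 over arrays and 0.77 over deviations. Without the 2 libraries that stood apart, the correlation of deviations with Reg3b was 0.83 for Reg3g, 0.60 for Reg3a and 0.33 for Reg1, and that over the 30 arrays was -0.08 for Reg1. These values share the arrays, their scaling and the LPS groups, and are descriptions.

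**Figure D3:**
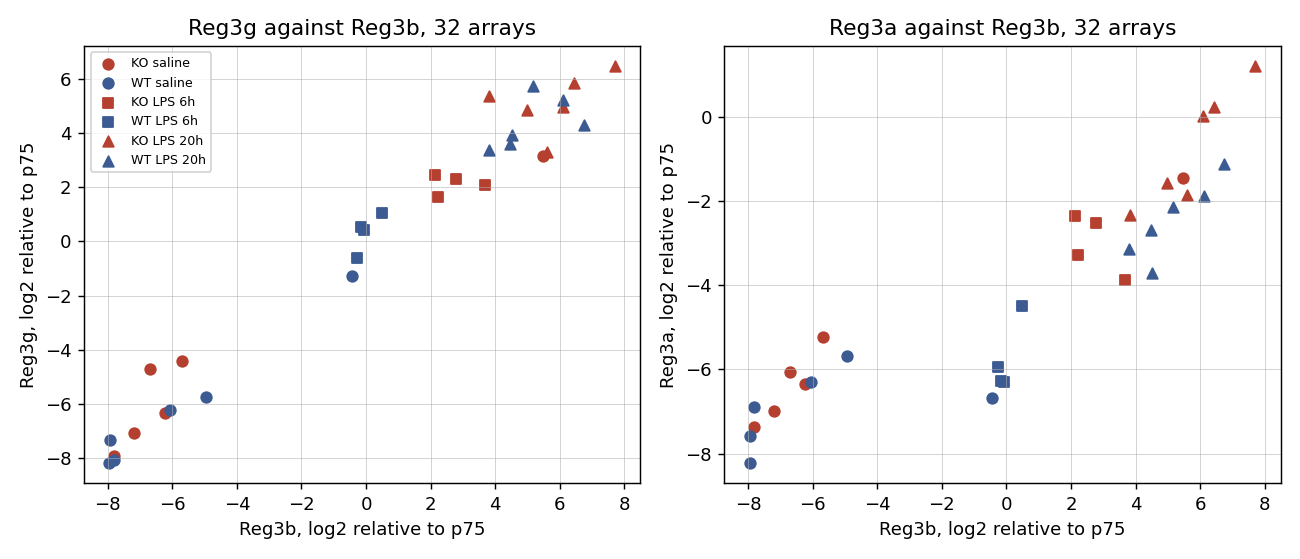
Reg3g (left) and Reg3a (right) against Reg3b in each of the 32 livers, all in log2 relative to the array's 75th percentile, with knockout in red, wild type in blue, and shape for treatment. Saline livers are at the lower left except the library at 5.47 and wild-type replicate 5 at -0.43, and the 6 h wild-type livers lie below the 6 h knockout livers in both panels.

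The genes whose levels were most like Reg3b over the 32 arrays were Ctla2b, Crybb3, Dnahc2, Ctla2a, Itgam, Chi3l3, Mdm4 and Arpc1b, with Pearson correlations from 0.94 for Ctla2b to 0.92 for Arpc1b. For Reg3g they were Ctla2b, Crybb3, Ctla2a, Adh7, Dnahc2, Cd14, Itgam and Mdm4, from 0.95 for Ctla2b to 0.93 for Mdm4. Itgam is the integrin chain of neutrophils and macrophages, Cd14 the co-receptor for LPS, Adh7 an alcohol dehydrogenase and Chi3l3 a chitinase-like macrophage product. Crybb3 encodes a crystallin best known from the lens, and Mdm4 a regulator of p53. For 6 of the 8 genes the 2 lists agree, and all were chosen among the tested genes with a gene symbol, without the Reg family. For Reg3a the closest was Phgdh, the first enzyme of serine synthesis (0.94). The closest to Reg1 were S100a14, Tmem54, Tm4sf5, Ckmt1 and Muc3, at 0.81 to 0.78, named after their values were seen. Without the 2 libraries that stood apart, the correlations of these genes with Reg1 were 0.56 to 0.65.

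The level of Reg1 varied from liver to liver beside that of some genes known from mucosal and duct epithelium. Krt19, a keratin of bile ducts, had its 3 highest levels on the arrays with 3 of the 4 highest Reg1 levels: 2.57 in knockout saline replicate 1, 1.05 in knockout saline replicate 6 and 1.18 in wild-type saline replicate 5. On the other 29 arrays Krt19 was at most -0.64. Krt7, a further keratin of bile ducts, was 1.70 in knockout saline replicate 1, but -1.06 in knockout saline replicate 6 and -1.11 in wild-type saline replicate 5, below the 0.60 of knockout saline replicate 2, where Reg1 was not measured. Muc3, a mucin, was at 2.85, 0.70 and 1.28 on those arrays and at most -3.18 elsewhere. Of 22 acinar pancreas genes, the lipases Pnlip and Pnliprp2 were never measured, and 10 were measured in knockout saline replicate 1. Their summed level there, 3.35, was the highest of the 32 arrays, next to 2.65 in wild-type 6 h replicate 1. It was 2.08 in knockout saline replicate 6 and 1.64 in wild-type saline replicate 5. Ctrb1, a chymotrypsinogen measured on every array, was also highest in knockout saline replicate 1, at 0.47, and at most -0.29 elsewhere, while Prss2 and Cpa1 were not measured on those 3 arrays. Of 6 islet genes, Ins1 and Pdx1 were never measured, and the others were on some arrays, at most 3 of the 6 on any. The summed islet level was 0.20 in knockout saline replicate 1, 0.13 in knockout saline replicate 6 and 0.10 in wild-type saline replicate 5. Its highest value was 0.27, in wild-type 6 h replicate 1. These epithelial and acinar genes were chosen after their values were seen, and their part in the Reg1 values was not tested.

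**Figure D4:**
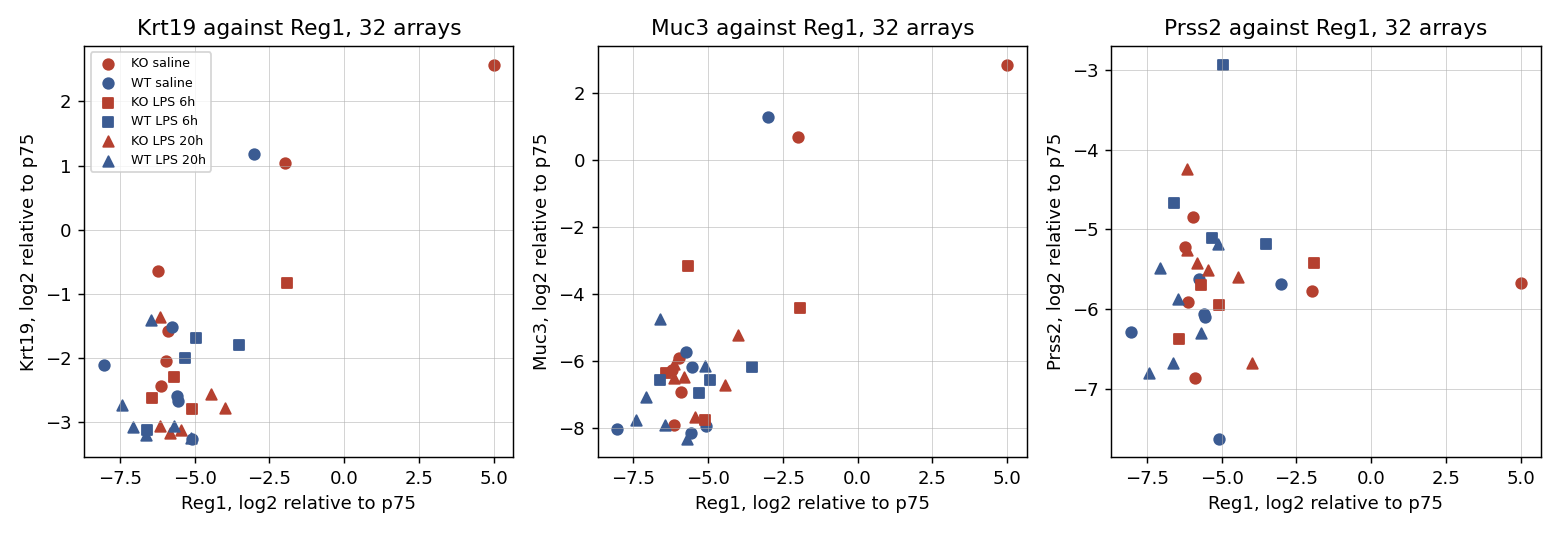
Krt19 (left), Muc3 (middle) and Prss2 (right) against Reg1 in the 32 livers, all in log2 relative to the array's 75th percentile, knockout in red and wild type in blue. The library with Reg1 at 5.01 and the saline livers with Reg1 at -1.99 and -3.01 also have the 3 highest Krt19 and Muc3 levels, and their Prss2 lies among the other arrays.

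The relatives outside the 4 members stayed mostly dark. Reg3d, a neighbour of Reg3b, was measured only in 1 of 4 knockout livers at 6 h and 2 of 6 at 20 h, and in no wild-type liver. Reg2 was measured at 0.02 in the library labelled knockout saline replicate 1 and in 1 knockout 20 h liver. Reg4 was measured in 1 wild-type saline liver and 1 knockout 6 h liver. None of the 3 passed the filter. Extl3, a proposed receptor for Reg proteins, was higher at 6 h than on saline in both genotypes, by 1.02 in knockout (limma, adjusted p = 0.0453) and by 0.76 in wild-type livers (limma, adjusted p = 0.0264). At 20 h it differed by 0.02 in knockout and -0.01 in wild-type livers, neither past the test. These values are of the brighter of 2 Extl3 probes, and the other probe, which was not tested, disagreed at 20 h. It averaged -2.88 ± 0.88 at 20 h and -3.90 ± 0.46 on saline in knockout livers, and -2.99 ± 0.32 at 20 h and -3.89 ± 0.81 on saline in wild-type livers (SD, n = 6 each).

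Of the cytokines able to induce Reg3 genes, 13 were measured. At 6 h, 2 of the 13 rose in knockout and 6 in wild-type livers, and 0 fell, beside the 2.61% and 28.5% of all genes called. Without the 2 libraries that stood apart, 7 rose and 1 fell at 6 h in knockout livers, where 29.2% of all genes were called. In wild-type livers 7 then rose and 0 fell. At 20 h in wild-type livers, 8 of 13 rose and 1 fell, with a median of 1.30, where 36.6% of all genes were called (16.5% higher and 20.1% lower) and the median of all was -0.02. In knockout livers 3 of 13 rose and 0 fell, with a median of 1.49, where 26.3% of genes were called (11.7% higher and 14.6% lower) and the all-gene median was -0.09. Without the 2 libraries 9 rose and 1 fell in either genotype, where 34.9% of all genes were called in knockout and 41.3% in wild-type livers. Il6, interleukin-6, rose at 20 h by 3.58 in knockout and 3.76 in wild-type livers, and Il10, an anti-inflammatory cytokine, by 2.68 in knockout and 3.44 in wild-type livers. Il33, an epithelial alarmin, rose by 2.51 in knockout and 3.77 in wild-type livers. Ifng, interferon gamma, rose by 3.78 in wild-type livers and differed by 3.30 in knockout livers without passing (limma, adjusted p = 0.0789). Osm, oncostatin M, the brightest that did not pass, differed by 0.87 in knockout and 1.14 in wild-type livers. Il22, picked after its values were seen, was measured in 3 of 6 knockout and 1 of 6 wild-type livers at 20 h, and in 0 of 4 knockout and 2 of 4 wild-type livers at 6 h. At neither LPS time did any of the 13 pass between genotypes.

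Of 16 receptor and STAT3 signalling genes measured, 5 rose and 3 fell at 20 h in knockout livers, against 6 and 2 in wild-type livers. Of all genes, 11.7% rose and 14.6% fell in knockout livers, against 16.5% and 20.1% in wild-type livers. Without the 2 libraries, 9 of the 16 rose and 3 fell in knockout livers. Socs1 and Socs3, feedback inhibitors of this route, rose by 4.86 and 3.12 in knockout and by 5.65 and 3.42 in wild-type livers. Osmr, the oncostatin receptor, rose by 2.02 in knockout and 3.15 in wild-type livers. Lifr, a receptor for leukaemia inhibitory factor, fell by 2.47 in knockout and by 3.24 in wild-type livers. Il11ra1, the brightest that did not pass, differed by -0.42 in knockout and -0.71 in wild-type livers. Of 21 acute-phase and feedback genes, 15 rose in knockout and 14 in wild-type livers and 0 fell, with medians of 1.69 in knockout and 1.36 in wild-type livers. Saa3, a serum amyloid, rose by 4.67 in knockout and 4.45 in wild-type livers, and Serpina3n, a protease inhibitor, by 3.46 in knockout and 3.55 in wild-type livers. Orm3, an orosomucoid, rose by 4.12 in knockout and 3.50 in wild-type livers, and Steap4, a metalloreductase, by 2.82 in knockout and 3.82 in wild-type livers. Fgb, a fibrinogen chain, did not pass, at -0.002 in knockout and -0.12 in wild-type livers.

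Other antimicrobial and recognition proteins split. Of 25 measured, 12 rose and 2 fell at 20 h in knockout livers, against 11 and 7 in wild-type livers. The shares of all genes that rose and fell were 11.7% and 14.6% in knockout and 16.5% and 20.1% in wild-type livers, which also stand beside the marker counts that follow. Lcn2, the siderophore-binding lipocalin, rose by 7.64 in knockout and 8.06 in wild-type livers. Ngp, a neutrophil granule protein, rose by 6.40 in knockout and 6.61 in wild-type livers. Chi3l1, a chitinase-like protein, rose by 6.41 in knockout and 5.92 in wild-type livers, and Slpi, a protease inhibitor of mucosae, by 5.16 in knockout and 5.66 in wild-type livers. Hamp, the iron hormone hepcidin, differed by -0.34 in knockout and -0.23 in wild-type livers without passing. No gene of these lists passed between genotypes at 6 h or 20 h. Of 14 neutrophil markers 13 rose at 20 h in each genotype, and of 9 Kupffer cell and macrophage markers 1 rose and 6 fell in knockout livers, against 1 and 7 in wild-type livers. Of 10 hepatocyte markers 0 rose and 6 fell in knockout livers, against 1 and 6 in wild-type livers.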

How the data were processed

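Liver RNA of 32 mice was read on single-colour Agilent 4x44K arrays. Per the file headers, the authors scanned them with Agilent Feature Extraction 10.7.1.1. They deposited a raw and a processed intensity for every spot, with flags, and the processed signal was used. The authors' deposited table of log2 values, whose normalization no source used here states, served as an alternative. The log2 signal was centred on each array's 75th percentile, leaving out spots flagged as outliers (84 to 232 per array). A gene was kept if at least 4 arrays showed it well above background, by its brightest probe. limma 3.58.1 in R 4.3.3 was fitted to all 32 arrays, and p-values were adjusted (Benjamini-Hochberg) over 19204 genes at a threshold of 0.05. The fit was tested on simulated data. Exact permutation tests were two-sided. Genes named were the 4 members, per list the 4 called genes with the largest wild-type 20 h change and the brightest not called, and the 8 genes most like Reg3b and Reg3g. The members and lists were chosen with earlier results of these data known. Same-numbered arrays did not pair (median correlation of deviations 0.0138), so no block was used. Promoters are RefSeq's (GRCm38.p6). Alternatives were other scalings, filters, blocks, weights and left-out arrays.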

Additional observations from a re-analysis of the deposited data

Results flagged for a closer look

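In 4 of the 24 sets of values tested, 4 genes by 6 groups, the highest library lay far from the rest of its group by Dixon's test, which flags about 1 in 20 sets by chance. The library labelled knockout saline replicate 1 had Reg3b at 5.47, with the next knockout saline liver at -5.69. The same library had Reg3g at 3.14, with the next at -4.40, and Reg3a at -1.44, with the next at -5.23. Wild-type saline replicate 5 had Reg3g at -1.26, with the next wild-type saline liver at -5.76. In all 4 sets the other libraries were not well above background.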

How the results depend on the processing

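All values are log2 differences unless called counts, and adjusted p-values are limma's, over all genes. The 6 h minus saline difference in knockout livers kept its direction and no longer passed under several settings. Normexp with quantile scaling gave 3.98 for Reg3b (adjusted p = 0.054) and 3.77 for Reg3g (adjusted p = 0.0505), and no filter gave 7.38 and 6.67 (adjusted p = 0.0656 each). Slide as a block gave 6.70 for Reg3b and 6.30 for Reg3g, and only the groups compared gave 7.38 and 6.67 (adjusted p = 0.357 each). Scan date 3 alone, whose only 6 h knockout library is replicate 1, gave 4.28 and 2.88. The replicate block gave 7.15 for Reg3b and 6.61 for Reg3g (adjusted p = 0.124 each), though the numbers did not pair the samples (2 of 32 arrays correlated best with their own number). The wild-type difference no longer passed with normexp and quantile scaling for Reg3b (2.37, adjusted p = 0.0803), nor within scan date 2 for Reg3b (3.74) and Reg3g (4.85). Reg3a passed with array weights in knockout minus wild type at 20 h (2.78, adjusted p = 0.0131) and 6 h (2.96, adjusted p = 0.00503) and in 6 h minus saline in knockout livers (3.55). The last also passed within scan dates 1 (4.67) and 2 (2.99), and turned to -0.12 within scan date 3. By exact permutation the unadjusted p fell under 0.05 for Reg3a at 20 h (1.73) and for Reg3a (2.75), Reg3b (2.70) and Reg3g (1.77) at 6 h.

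Signs also changed among differences that did not pass. Knockout minus wild type at 20 h was -0.98 for Reg3b within scan date 3 and -0.28 for Reg3g within scan date 2. On saline, array weights gave -1.10 for Reg3b and -0.20 for Reg3g, and scan date 2 gave -2.14 and -0.95. The genotype by LPS term at 20 h, a description for these genes, was 2.54 for Reg3b and 1.47 for Reg3g with array weights, 0.29 and 0.011 with slide as a block, 0.81 and 0.64 within scan date 1, and 2.71 and 0.67 within scan date 2. At 6 h it was -0.25 for Reg3g with slide as a block. The cause was not tested.

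Leaving out 1 array in turn, or both libraries that stood apart, gave 6.76 to 9.42 for Reg3b, 5.99 to 8.21 for Reg3g and 2.22 to 3.70 for Reg3a in 6 h minus saline in knockout livers. Knockout minus wild type ranged from 2.53 to 3.17 for Reg3a at 6 h and from -0.87 to 2.25 for Reg3b on saline. The genotype by LPS term ranged from -1.61 to 1.5 for Reg3b and -1.79 to 0.72 for Reg3g at 20 h, and from -0.80 to 1.72 for Reg3g at 6 h. The saline and 20 h signs turned without knockout saline replicate 1. The 6 h sign turned without wild-type saline replicate 5, knockout saline replicate 2, 3 or 6, or wild-type 6 h replicate 1. Counts of genes called ranged from 33 to 100, 77 to 331 and 37 to 70 for knockout minus wild type at 20 h, 6 h and on saline. They ranged from 0 to 5600 for 6 h minus saline in knockout livers, and from 4 to 14 and 8 to 36 for the genotype by LPS term at 20 h and 6 h.

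Counts of genes called also moved with other settings. Knockout minus wild type at 20 h called 62 genes, against 219 with array weights, 28 with slide as a block, 25 with only the groups compared, and 17, 4 and 0 within scan dates 1, 2 and 3. At 6 h it called 242, against 116 with no filter, 1301 with array weights, 62 with slide as a block, 7 with only the groups compared, and 7, 0 and 0 within the scan dates. On saline it called 64, against 234 with array weights, 39 with slide as a block, and 11 and 7 within scan dates 1 and 2. The 6 h minus saline comparison in wild-type livers called 5471, against 2977 and 1793 within scan dates 1 and 2. In knockout livers it called 502, against 280 with quantile scaling, 1 with normexp and quantile, 2 with no filter, 8147 with array weights, 0 with slide as a block, 1 with the replicate block, 0 with only the groups compared, and 2578, 3394 and 0 within the scan dates. The genotype by LPS term at 20 h called 8, against 4 with quantile scaling, 1 with the authors' processed table, 4 with no filter, 77 with array weights, 1 with slide as a block, 4 with the replicate block, and 3 and 1 within scan dates 1 and 2. At 6 h it called 24, against 12 with the authors' processed table, 612 with array weights, 7 with slide as a block, 38 with scan date as a block, and 0 within scan dates 1 and 2. The 20 h minus saline comparison in knockout livers called 5054, against 7840 with array weights, 3064 with only the groups compared, and 394 and 0 within scan dates 2 and 3. Where limma called 0 genes, 198 (6 h minus saline in knockout livers, scan date 3) to 3911 (the same comparison, slide as a block) had an unadjusted p under 0.05. Of 835 member results under other settings, 757 kept their direction and side of the threshold, 37 no longer passed, 14 newly passed and 27 changed sign. Median centring gave all-gene medians of 0.14 for knockout minus wild type at 6 h and -0.14 on saline, of -0.15 for 6 h minus saline in wild-type livers, and of 0.29 at 6 h and 0.22 at 20 h for the genotype by LPS term. Values of Reg genes on saline lay at or below background on most arrays, which limits differences from saline.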
